A study of Mus musculus with 24 samples.

Results

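MicroRNA (miR) levels in the hippocampus of mouse pups given morphine and stress, at either dose, were compared with those of untreated pups. Of the 24 arrays of the study, the 9 miR arrays were chosen: 6 from treated pups and 3 from untreated controls (Con). Each dose had the same weight, and each of the 1412 mouse probe sets was tested. All pups were C57BL/6 males killed on P9, and each array held RNA from both hippocampi of 1 pup. From P5 the treated pups were taken from the dam during the day, were exposed on each day to N2 and then O2 to imitate apnea, and received morphine before each exposure, at 2 mg/kg in the MS2 group and 5 mg/kg in the MS5 group, with 3 arrays each. Controls stayed with the dam and were handled little, and no group had stress alone or morphine alone. Morphine and the stress protocol therefore cannot be told apart in any comparison with controls.

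A mature miR is a short RNA cut from one of the arms of a hairpin precursor. Its seed, the bases next to the first base of its 5′ end, pairs with target mRNAs and lowers their translation or stability, so miRs that share a seed can share targets. The other arm, marked by an asterisk in older names, usually accumulates less. In the brain, miRs take part in neuronal maturation and synaptic plasticity, and some mark cell types around the hippocampus, such as the choroid plexus or ciliated ependyma.

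The miRs that the results turn on are shown with the seed, bases 2 to 8, in capitals. The older names of the array were matched to an arm of the RefSeq entry (GRCm38.p6), and 10 of the 13 mature miRs called below had a sequence in the tables used. Of the first 6, 5 were called lower in treated pups, and miR-34b-3p is shown because it has the seed of miR-34c*.
miR-34c*: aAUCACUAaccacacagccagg
miR-34b-3p: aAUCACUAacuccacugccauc
miR-574-3p: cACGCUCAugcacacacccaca
miR-214: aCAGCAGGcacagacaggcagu
miR-455: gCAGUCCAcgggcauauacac
miR-139-3p: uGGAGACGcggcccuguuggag
Those higher in treated pups follow, with miR-30a, miR-30c and miR-30e added because they share the seed of miR-384-5p.
miR-31*: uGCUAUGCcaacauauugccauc
miR-153: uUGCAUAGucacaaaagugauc
miR-434-3p: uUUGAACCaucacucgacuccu
miR-1983: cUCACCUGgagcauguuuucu
miR-384-5p: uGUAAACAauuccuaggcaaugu
miR-30a: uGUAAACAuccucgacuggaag
miR-30c: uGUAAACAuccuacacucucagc
miR-30e: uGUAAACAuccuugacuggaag
Apart from the miR-34 pair and the 4 miRs with the seed GUAAACA, none of those printed shared a seed with another. The called miRs miR-598, miR-1839-3p and miR-2135 are named only.

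By the RefSeq coordinates, several of these miRs lie on the same strand as, and inside, a longer gene. The sequence of miR-574-3p lies at chr5:64970364-64970385 (+) within Fam114a1, that of miR-214 at chr1:162223438-162223459 (+) within the long non-coding RNA Dnm3os, and that of miR-455 at chr4:63256904-63256924 (+) within Col27a1. For miR-139-3p the site is chr7:101475418-101475439 (+) within Pde2a, for miR-34c* chr9:51103044-51103065 (-) within Hoatz, and for miR-153 chr12:117250860-117250881 (+) within Ptprn2. The miR-31* site, chr4:88910577-88910599 (-), lies within the non-coding Gm49890. The miR-434-3p site, chr12:109594565-109594586 (+), lies in the span given for Rtl1, whose strand was not listed. For miR-1983 (chr13:21896930-21896950, -) and miR-384-5p (chrX:105344332-105344354, -) no such gene on the same strand was listed. Whether a site is exonic or intronic was not looked up.

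All levels below are log2 array signals, a change is the mean of the MS2 and MS5 means minus the Con mean, and a probe set was called when it passed 1.5-fold and limma's unadjusted p was below 0.05, the threshold that the study used. Array medians were 4.17 to 4.21, and the 722 mature probe sets had a median level of 4.68 against 4.09 for the 690 hairpin probe sets, so many probe sets lay near the floor of the array. Across the 722 mature probe sets, 5 treated arrays had r between 0.987 and 0.991 with the control mean and MS5 replicate 9 had 0.996, as a description. On the mRNA arrays of the same study, which carry the same kind of replicate numbers, 3 arrays stood apart. MS5 replicate 9 had Xist, the RNA of the inactive X chromosome of females, at 11.34 against 5.9 to 6.08 on the other 14, although every pup was labelled male. MS2 replicate 4 had a mean of 11.32 over 6 hippocampal neuron markers against 13.07 to 13.52 in Con, with Neurod6 at 10.02 and Neurod2 at 10.59. MS5 replicates 9 and 14 had means of 9.82 and 8.71 over 12 choroid plexus markers, against 11.35 to 12.68 elsewhere. On the miR arrays it was MS5 replicates 12 and 14, not 9, that were low in choroid plexus miRs, so the numbers 9 and 12 did not line up between the 2 kinds of array. Both numbers are in MS5 on either assay, so exchanging them would leave each contrast the same. The part of these arrays in the results was not tested beyond leaving arrays out, as given beside each result.

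Few miRs differed by much between treated and control pups, and those called were split evenly by direction. In the pooled comparison 14 of 1412 probe sets (0.992%) were called, 7 higher (0.496%) and 7 lower (0.496%), by 1.52-fold to 1.87-fold. Of the 14, 13 were mature, which is 1.8% of mature probe sets, and 1 was a hairpin. The lower group held miR-34c*, made in quantity by multiciliated cells, and miR-574-3p, miR-214 and miR-455, 3 members of a 23-member mesenchymal and meningeal list of which 12 changes were above 0 and 11 below. The higher group held miR-153 and miR-384-5p, both studied in neurons, and miR-434-3p, from the imprinted Dlk1-Dio3 domain. The neuron-enriched list of 26 that holds miR-153 had 15 changes above 0 and 11 below. At limma's unadjusted p under 0.05, 1 of the 26 was higher and 4 were lower. Over all 1412 probe sets, 168 (11.9%) had an unadjusted p under 0.05, 79 higher and 89 lower. With Benjamini-Hochberg adjustment over all 1412 in limma, 5 (0.354%) had an adjusted p under 0.05: miR-1839-3p, miR-31*, miR-30c, miR-574-3p and miR-17*. Of these, miR-30c and miR-17* changed less than 1.5-fold.

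**Figure D1:**
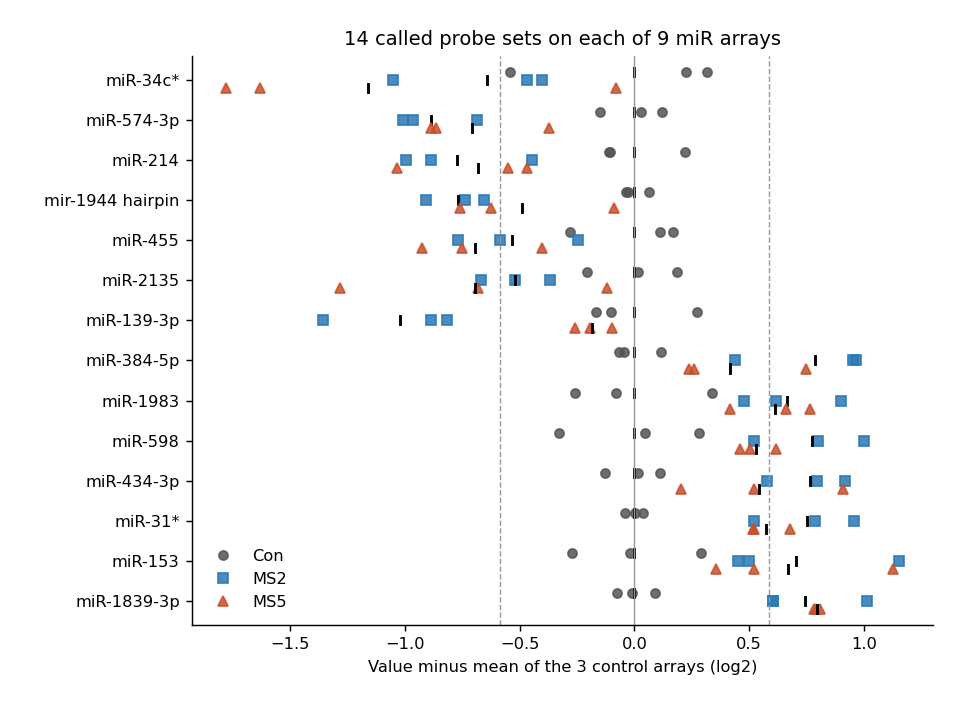
Level of each of the 14 called probe sets on each of the 9 miR arrays, as the difference from the mean of the 3 Con arrays (log2); circles are Con, squares MS2, triangles MS5, short bars the group means, and dashed lines 1.5-fold. For 10 of the 14 every treated array lies beyond every control array, and miR-34c*, miR-455, miR-2135 and miR-139-3p are the exceptions.

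The 6 treated arrays lay wholly on one side of the 3 controls for 78 probe sets (5.52%), 37 higher and 41 lower, and the change of these was mostly small, with a median size of 0.33. Of the 14 called, 10 were among them. In a two-sided exact permutation test over all 84 ways to pick 3 arrays as controls, these 10 had p = 0.0238, the smallest that the design allows. Any probe set separated in this way has that p, so it adds nothing to the separation. The other 4 had exact p between 0.0476 and 0.0952. Which probe sets were called depended on single arrays. Without MS2 replicate 4, 20 were called and 8 of the 14 were still among them, and 27 instead of 5 had an adjusted p under 0.05. Without Con replicate 17, 32 were called, without MS5 replicate 9, 26, and without Con replicate 16, 9. miR-574-3p, miR-214, miR-31* and miR-1839-3p were called without each of the 9 arrays in turn and under every other setting tried. With quantile normalization on top of the deposited values the split of the 14 calls was 12 higher and 2 lower, and 8 calls were shared.

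Among the called miRs, 6 (0.425% of 1412) also passed 1.5-fold in the same direction in each dose mean: miR-34c*, miR-574-3p and miR-214 were lower, and miR-1839-3p, miR-153 and miR-1983 were higher. All 6 were measured by PCR in the paper, which names only miR-574-3p of them as borne out. The doses share their controls, so their values are given side by side. miR-574-3p read 8.51, 8.24 and 8.42 on the Con arrays (replicates 16, 17 and 18), 7.43, 7.71 and 7.38 on the MS2 arrays (replicates 3, 4 and 6) and 8.02, 7.53 and 7.51 on the MS5 arrays (replicates 9, 12 and 14), and this order of replicates is kept below. Every treated array was below every control array. The pooled change was -0.80 ± 0.13 (SE; 95% interval -1.09 to -0.50; adjusted p = 0.0465), with -0.89 for MS2 and -0.71 for MS5. The difference MS5 minus MS2 was 0.18, with an interval from -0.16 to 0.52, so a dose effect in either direction within these bounds was not excluded.

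miR-214, which is made together with miR-199a from Dnm3os in mesenchymal tissue, was also lower on all 6 treated arrays. Its levels were 6.95, 6.95 and 7.28 in Con, 6.18, 6.62 and 6.07 in MS2, and 6.51, 6.59 and 6.03 in MS5. The change was -0.73 ± 0.16 (adjusted p = 0.111), -0.78 for MS2 and -0.68 for MS5, and MS5 minus MS2 was 0.09 (-0.33 to 0.51). The values of miR-199a went the other way without passing the test, at 0.30 ± 0.27 for miR-199a-3p (adjusted p = 0.766) and 0.20 ± 0.21 for miR-199a-5p (adjusted p = 0.805). miR-34c* behaved less evenly. It read 9.28, 8.51 and 9.37 in Con, 8.65, 8.00 and 8.58 in MS2, and 8.98, 7.27 and 7.42 in MS5. MS5 replicate 9 lay among the controls and Con replicate 17 among the MS2 arrays, and the change of -0.90 ± 0.37 (adjusted p = 0.364; exact permutation p = 0.0952) lost its call without any one of Con 16, Con 18, MS2 4, MS5 12 and MS5 14. MS5 minus MS2 was -0.52, with a wide interval from -1.49 to 0.44.

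Of the miRs that were higher at both doses, miR-1839-3p had the lowest adjusted p. It read 5.33, 5.16 and 5.23 in Con, 5.84, 5.84 and 6.25 in MS2, and 6.03, 6.02 and 6.05 in MS5. The gap between the highest control and the lowest treated array exceeded the spread within Con. The change was 0.77 ± 0.10 (adjusted p = 0.0289), 0.74 for MS2 and 0.79 for MS5, with MS5 minus MS2 at 0.05 (-0.20 to 0.30). For miR-153, a neuronal miR known to target synaptic proteins, the levels were 6.13, 5.82 and 5.57 in Con, 6.29, 7.0 and 6.34 in MS2, and 6.36, 6.20 and 6.97 in MS5. MS2 replicate 4 and MS5 replicate 14 were well above the other treated arrays, and without both the change was 0.46 instead of 0.69 ± 0.21 (adjusted p = 0.22) and was not called. Its call was also lost without either of them alone and without Con replicate 18. miR-1983 read 6.48, 6.90 and 6.30 in Con, 7.04, 7.46 and 7.18 in MS2, and 6.98, 7.22 and 7.33 in MS5, with only a narrow gap between Con replicate 17 and MS5 replicate 9. Its change was 0.64 ± 0.15 (adjusted p = 0.111), and MS5 minus MS2 was -0.05 (-0.43 to 0.33). It was not called without Con replicate 18 or without MS2 replicate 4.

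The other 8 called probe sets passed 1.5-fold in the mean of 1 dose and not of the other. Of the higher ones, miR-31*, miR-434-3p, miR-598 and miR-384-5p did so in MS2. miR-31* read 4.63, 4.67 and 4.59 in Con, 5.15, 5.59 and 5.42 in MS2, and 5.15, 5.31 and 5.15 in MS5. The controls lay within 0.1 of each other and every treated array was above them, for a change of 0.66 ± 0.09 (adjusted p = 0.0389), 0.75 for MS2 and 0.57 for MS5. Its Con mean of 4.63 lay under the median level of 4.68 of mature probe sets, near the floor, as did that of miR-598, 4.585. miR-434-3p, at 9.18, 9.42 and 9.32 in Con, reached 10.10, 10.22 and 9.88 in MS2 and 9.51, 9.83 and 10.22 in MS5, a change of 0.65 ± 0.14. miR-598 read 4.26, 4.63 and 4.86 in Con, 5.39, 5.10 and 5.59 in MS2, and 5.04, 5.20 and 5.09 in MS5. Its change was 0.65 ± 0.14, and both of these had an adjusted p of 0.111. miR-384-5p, which has the seed of the miR-30 family and has been studied in long-term potentiation, was near the floor, at 4.31, 4.50 and 4.33 in Con, 4.82, 5.33 and 5.35 in MS2, and 4.62, 5.1 and 4.64 in MS5. Its change was 0.60 ± 0.15 (adjusted p = 0.133), and its call was lost without any one of Con 16, Con 18, MS2 4, MS2 6 and MS5 12. Without MS5 replicate 14 miR-434-3p was not called, and without Con replicate 16 miR-598 was not.

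Lower in both doses but past 1.5-fold in the MS5 mean alone were miR-455 and miR-2135. miR-455 read 8.89, 8.50 and 8.95 in Con, 8.01, 8.54 and 8.20 in MS2, and 8.38, 8.03 and 7.86 in MS5, so that MS2 replicate 4 lay just above Con replicate 17. The change was -0.61 ± 0.16 (adjusted p = 0.133). miR-2135 read 9.81, 9.42 and 9.64 in Con, 9.25, 8.95 and 9.1 in MS2, and 8.34, 8.94 and 9.51 in MS5. MS5 replicate 9 was the lowest array, MS5 replicate 14 lay inside the control range, and the change of -0.61 ± 0.21 (adjusted p = 0.285) was -0.46 and not called without MS5 replicate 9. Its call was also lost without any one of Con 16, Con 18 and MS2 4, and that of miR-455 without any one of Con 16, Con 18, MS2 3 and MS5 14. The hairpin probe set of mir-1944 was lower past 1.5-fold in MS2 alone, at 7.88, 7.71 and 7.97 against 8.60, 8.59 and 8.68 in Con, while the MS5 arrays read 7.86, 7.99 and 8.53. Its change was -0.63 ± 0.14 (adjusted p = 0.111), and its call was lost without MS5 replicate 9, while the mature miR-1944 changed by 0.38 ± 0.31 (adjusted p = 0.72).

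Among the called, 1 miR differed between the doses at an unadjusted p under 0.05. miR-139-3p read 8.45, 8.07 and 8.00 in Con, 7.29, 6.82 and 7.36 in MS2, and 8.08, 7.92 and 7.98 in MS5. The MS2 arrays were all below every other array, while MS5 replicate 9 lay inside the control range and the other MS5 arrays just under it. MS2 was lower than Con by a change of -1.02 and MS5 by -0.18. The difference of 0.84 (0.48 to 1.19) had an adjusted p of 0.33 in limma. The pooled change was -0.60 ± 0.14 (adjusted p = 0.111), and its call was lost without any one of Con 16 (-0.47), MS2 4 (-0.52) and MS5 12 (-0.58). For the other 13 called probe sets the interval of MS5 minus MS2 included 0, which does not show that the doses acted alike.

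**Figure D2:**
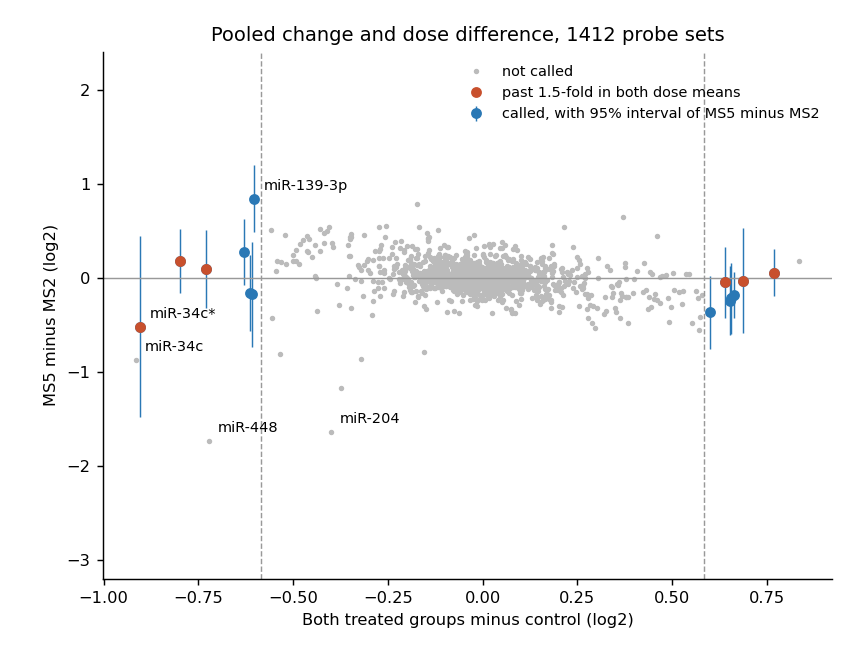
Pooled change against Con (x, log2) and MS5 minus MS2 (y, log2) of the 1412 probe sets; filled circles are called, with the 95% interval of MS5 minus MS2 as a vertical line, and the 6 past 1.5-fold in both dose means are red. miR-139-3p is the called miR whose interval lies above 0, and miR-448 and miR-204 have large dose differences with no pooled call.

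Across all probe sets, MS5 and MS2 differed past 1.5-fold with an unadjusted p under 0.05 at 6 of 1412 (0.425%), namely miR-139-3p, miR-187, miR-204, miR-34a, miR-34b-5p and miR-448. At an unadjusted p under 0.05 alone there were 99 (7.01%), and in limma 0 had an adjusted p under 0.05 (lowest 0.128). Without MS2 replicate 4 the count of 6 became 43. miR-448, which lies in the serotonin receptor gene Htr2c, read 7.16, 6.76 and 7.61 in Con, 7.52, 6.92 and 7.52 in MS2, and 7.25, 4.81 and 4.71 in MS5. Only MS5 replicates 12 and 14 were low. miR-204, which lies in Trpm3 and is abundant in choroid plexus, showed the same arrays low, at 6.99, 7.06 and 7.53 in Con, 8.30, 6.84 and 7.70 in MS2, and 7.31, 5.23 and 5.37 in MS5. Their pooled changes were -0.72 ± 0.51 (adjusted p = 0.646) and -0.40 ± 0.47 (adjusted p = 0.831), and neither was called. Without MS5 replicate 9 both were called lower, at -1.14 and -0.73.

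The opposite arm of the hairpin was on the array for 9 called miRs. In limma 0 of these arms were called, beside 1.8% of all mature probe sets, 2 had an unadjusted p under 0.05, and 7 of the 9 had the sign of the called miR. These were miR-574-5p, at -0.47 ± 0.12 (adjusted p = 0.133), and miR-434-5p, at 0.43 ± 0.16 (adjusted p = 0.323). The main arm miR-34c had the size of change of miR-34c*, -0.91 ± 0.49 (adjusted p = 0.512), and read 10.91, 9.84 and 11.01 in Con, 10.33, 9.83 and 10.16 in MS2, and 10.75, 8.45 and 8.50 in MS5. miR-31, at a level of 8.83, changed by 0.09 ± 0.36 while miR-31* changed by 0.66. miR-31 read 9.13, 8.46 and 8.74 in Con, 8.21, 10.06 and 8.37 in MS2, and 8.83, 8.95 and 8.76 in MS5. MS2 replicate 4 stood above every other array. miR-139-5p changed by 0.22 ± 0.11, opposite in sign to miR-139-3p, with -0.05 for MS2 and 0.48 for MS5. Its MS5 minus MS2 was 0.54 (0.24 to 0.83, adjusted p = 0.478 in limma), so both arms of miR-139 were higher in MS5 than in MS2. The arms miR-214*, miR-455* and miR-384-3p had mean levels of 4.21, 4.25 and 4.00, near the floor, where a change would be hard to see. The 14 hairpin probe sets of the called miRs changed by -0.35 to 0.21 at levels of 3.87 to 5.27, and 1 of them, that of mir-434 at 0.21 ± 0.07, had an unadjusted p under 0.05, while 12 of the 14 had the sign of the called miR.

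**Figure D3:**
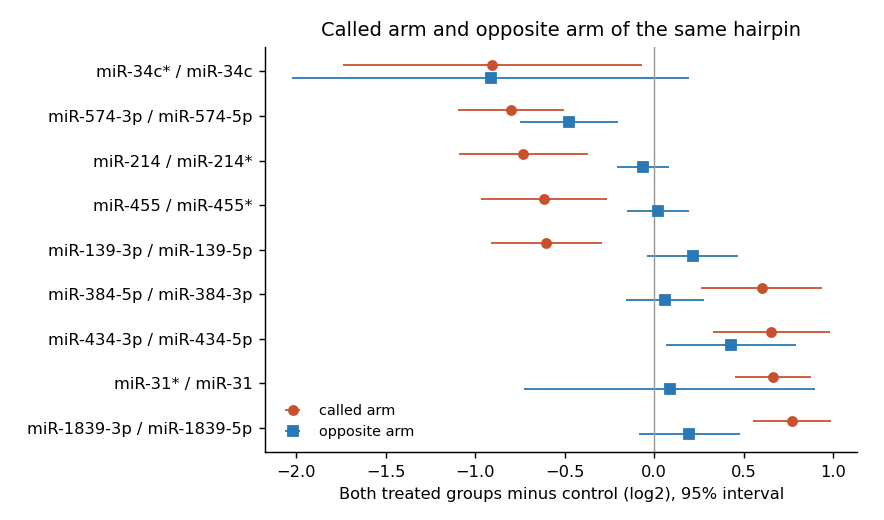
Pooled change (log2) with its 95% interval of the 9 called mature miRs whose opposite arm was on the array, with the called arm as circles and the opposite arm as squares. The miR-574 and miR-434 pairs have both intervals on the same side of 0. The pooled change of miR-139-5p lies opposite to that of miR-139-3p, though both arms were higher in MS5 than in MS2.

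Of the miR-30 family, abundant in brain, 0 of 5 main arms were called in limma, and 1, miR-30c, had an adjusted p under 0.05. The family was singled out after its values were seen, because miR-384-5p shares the seed GUAAACA with it. miR-30c read 10.00, 10.15 and 10.05 in Con, 10.65 to 10.84 in MS2, and 10.32, 10.59 and 10.46 in MS5, every treated array being above the controls. Its change was 0.52 ± 0.08 (adjusted p = 0.0389), just under 1.5-fold. miR-30e changed by 0.46 ± 0.12 (adjusted p = 0.138), miR-30b by 0.44 ± 0.13 (adjusted p = 0.206), miR-30a by 0.21 ± 0.09 (adjusted p = 0.389) and miR-30d by 0.04 ± 0.11 (adjusted p = 0.957). With miR-384-5p, the 6 had a median change of 0.45 and all 6 changes were above 0, under both other scalings too. At an unadjusted p under 0.05 there were 5 of the 6, beside 8.17% of all mature probe sets that were higher at that threshold, and since the 6 were picked with their values known this count is a description. Members this close in sequence may share signal on an array, so their values are uncertain as separate measurements. The opposite arms went different ways, with miR-30a* at 0.47 ± 0.10, miR-30b* at -0.44 ± 0.10 and miR-30c-2* at -0.19 ± 0.09.

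**Figure D4:**
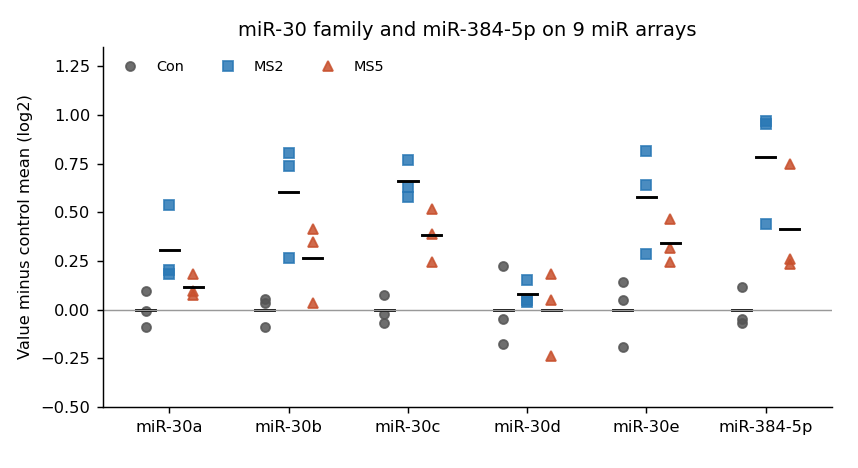
Level of the 5 miR-30 miRs and of miR-384-5p on each of the 9 arrays, as the difference from the Con mean (log2); circles are Con, squares MS2, triangles MS5 and bars the group means. The MS2 and MS5 means of miR-30a, miR-30b, miR-30c, miR-30e and miR-384-5p lie above every control array, while miR-30d stays within the control range in both means.

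Lists of miRs by cell type, cluster or response were then described, beside 8.17% of all 722 mature probe sets that were higher and 8.86% that were lower at an unadjusted p under 0.05, and a median change of -0.01. The Dlk1-Dio3 cluster, an imprinted domain with many neuronal miRs, had 17 of 73 probe sets higher (23.3%) and 3 lower (4.11%) at that threshold, with a median change of 0.07. Its 1 call was miR-434-3p, followed by miR-410 at 0.58 ± 0.14 (adjusted p = 0.133). Without MS2 replicate 4, 16 were higher and 14 lower, beside 91 and 102 of all 722 mature probe sets, and without Con replicate 18, 10 were higher and 3 lower. The mean level of the list was 6.91 to 7.05 in Con and reached 7.20 on MS2 replicate 4 and MS5 replicate 14. Without both of these arrays 12 were higher and 16 lower, beside 82 and 103 of all 722 mature probe sets. The median change of the cluster was then 0.03. Of the miR-17-92 cluster and its paralogs, which promote proliferation, 0 of 22 were higher and 6 lower (27.3%) at an unadjusted p under 0.05 in limma, and none was called. The largest of these were miR-17*, at -0.50 ± 0.08 (adjusted p = 0.0465), and miR-92b, at -0.49 ± 0.10 (adjusted p = 0.105). miR-17* read 8.85, 8.79 and 8.76 in Con, 7.97, 8.29 and 8.28 in MS2, and 8.41, 8.41 and 8.44 in MS5, with no overlap, while the cluster's median change was -0.04. Without Con replicate 17 the count of lower probe sets was 3 in place of 6.

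Lists for cells other than neurons differed in how evenly they moved. Of the 23 mesenchymal and meningeal probe sets, 3 were called, all lower (miR-574-3p, miR-214 and miR-455), while the median of the list was 0.02, and 0 were higher and 5 lower at an unadjusted p under 0.05 in limma. The mean level of the list spanned 6.03 to 6.11 in Con, 5.92 to 6.09 in MS2 and 5.81 to 5.99 in MS5. All 6 choroid plexus probe sets were lower, with a median of -0.49, and 0 were called in limma, while miR-764-3p (-0.56 ± 0.17, adjusted p = 0.22) and miR-764-5p (-0.44 ± 0.17, adjusted p = 0.335) had an unadjusted p under 0.05. The median was -0.12 for MS2 and -0.86 for MS5. The mean level of the list was 6.14 to 6.68 in Con, 5.94 to 6.68 in MS2, and 6.34, 5.06 and 5.11 on the MS5 arrays, so that the low values stood on MS5 replicates 12 and 14. Without MS5 replicate 9 the median of the list was -0.69, with 5 of the 6 lower at an unadjusted p under 0.05 in place of 2. It was -0.66 without Con replicate 17, -0.30 without Con replicate 18, -0.32 without MS2 replicate 4 and -0.23 without MS2 replicate 4 and MS5 replicate 14. The ciliated cell list, which shares miR-449a with it and holds the miR-34b/c family, had 7 of 7 lower, a median of -0.38 and the call of miR-34c*, and was low on the same 2 arrays, at 6.05 and 6.17 against 6.95 to 7.58 in Con. Its median was -0.62 without Con replicate 17, -0.61 without MS5 replicate 9 and -0.16 without MS2 replicate 4 and MS5 replicate 14. In bulk tissue, fewer cells of a type and less RNA per cell cannot be told apart.

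**Figure D5:**
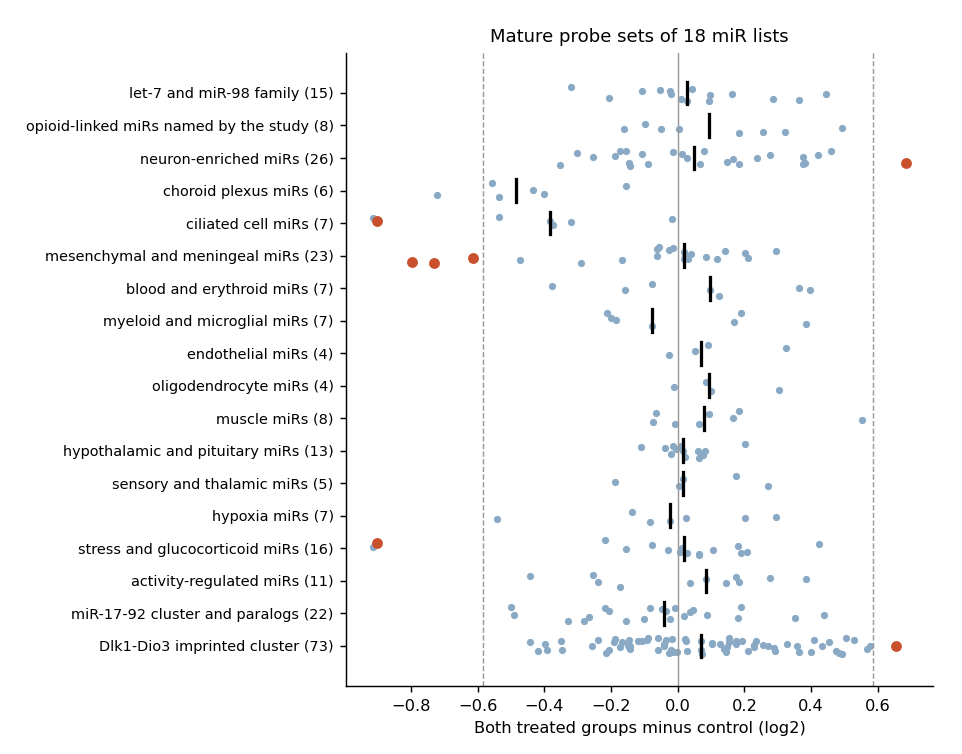
Pooled change (log2) of the mature probe sets of 18 miR lists, each with its number of probe sets; red circles are called, black bars the medians of each list and dashed lines 1.5-fold. The choroid plexus and ciliated lists lie wholly below 0, and the medians of the other 16 lists lie between -0.08 and 0.10.

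The remaining lists had few or no calls. Among 26 neuron-enriched probe sets miR-153 was called higher, and 1 was higher and 4 lower at an unadjusted p under 0.05, including miR-138 at -0.35 ± 0.12 and miR-212 at -0.26 ± 0.07. Without MS2 replicate 4, 5 were higher and 6 lower, and without Con replicate 18, 0 and 3 in limma. Of 16 stress and glucocorticoid probe sets the only call was miR-34c*, also counted as ciliated. The let-7 and miR-98 family, which restrains stem cell programmes, had 0 calls of 15 in limma with 3 higher at an unadjusted p under 0.05, led by let-7i at 0.44 ± 0.08 (adjusted p = 0.0586). That count of 3 was 1 without any one of Con 16, MS2 3, MS2 6 and MS5 12. Of 8 probe sets for miRs that the study links to opioids, 0 were called in limma, with 2 higher, such as miR-154* at 0.49 ± 0.15 (adjusted p = 0.206), and 1 lower at an unadjusted p under 0.05. The hypoxia list had 0 calls of 7, and its main member miR-210, a known hypoxia-induced miR, was lower at -0.54 ± 0.16 (adjusted p = 0.206). In the activity-regulated list, with 0 calls of 11, the largest change was that of miR-485, at -0.44 ± 0.24 (adjusted p = 0.518), and miR-146a changed by 0.38 ± 0.11 (adjusted p = 0.179). The blood (7), myeloid (7), endothelial (4), oligodendrocyte (4), muscle (8), hypothalamic and pituitary (13) and sensory and thalamic (5) lists had 0 calls in limma and between 0 and 2 probe sets each at an unadjusted p under 0.05. In the blood list miR-150 changed by 0.40 ± 0.15 and miR-150* by -0.38 ± 0.13, and in the myeloid list miR-146a, also in the activity-regulated list, changed by 0.38 ± 0.11 and miR-223 by -0.21 ± 0.08. The largest values of the other 5 lists were miR-126-3p at 0.33 ± 0.13, miR-338-5p at 0.30 ± 0.16, miR-206 at 0.55 ± 0.38, miR-200a* at 0.20 ± 0.09 and miR-182 at 0.27 ± 0.39. miR-206 read 6.78 on MS2 replicate 4, against 4.76 to 5.51 on the other treated arrays and 4.56 to 5.08 in Con.

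The genes that hold these miRs were looked up on the 15 mRNA arrays, 5 per group, with 10 treated and 5 control arrays. On those arrays the same pooled comparison called 30 of 55681 probes (0.0539%), 2303 had an unadjusted p under 0.05 (4.14%) and 0 had an adjusted p under 0.05 in limma (lowest 0.988). The 11 host genes include Rtl1, whose strand relative to miR-434 was not listed. Its brightest probe carries the listed synonym 6430411K18Rik, at a mean level of 10.61 against 6.03 for the probe named Rtl1. Whether both measure the same transcript was not tested. Of the 11, each by its brightest probe, 1 was called. This was Trpm3, the cation channel gene that holds miR-204, at -0.91 ± 0.38 (adjusted p = 0.988), which read 9.54, 7.56, 9.86, 9.09 and 7.09 on MS5 replicates 8, 9, 12, 13 and 14, against 9.72 to 10.71 in Con and 9.59 to 10.45 in MS2. The low arrays were the 2 low in the 12 choroid plexus markers, which were all lower, by -0.60 to -1.19, with 3 at an unadjusted p under 0.05. The part of those markers in the Trpm3 value was not tested. The 2 other Trpm3 probes changed by -0.38 and -0.13 and were not called, and the call was lost without any one of Con 16, Con 17, MS2 7 and MS5 9.

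At an unadjusted p under 0.05 there were 5 host genes. Ptprn2, a secretory vesicle protein gene that holds miR-153, changed by 0.33 ± 0.09 (adjusted p = 0.988 in limma), in the direction of miR-153, with 8.49 to 9.06 in Con, 8.93 to 9.23 in MS2 and 8.79 to 9.15 in MS5. These ranges overlapped through Con replicate 15. Its 2 other probes changed by 0.35 ± 0.12 and 0.07 ± 0.06. Col27a1, a collagen gene that holds miR-455, changed by -0.23 ± 0.07 and Fam114a1, which holds miR-574, by -0.16 ± 0.07, both in the direction of their miRs. Dnm3os changed by 0.10 ± 0.04, opposite in sign to miR-214, at a level of 6.19 and well above background on 12 of the 15 arrays. Hoatz, which holds miR-34c, changed by -0.46 ± 0.29 (adjusted p = 0.988), in the direction of miR-34c*, and did not pass the test. It read 7.55 and 7.29 on MS5 replicates 9 and 14, below the 8.08 to 9.24 of the other 13 arrays. Of the others, Pde2a, the phosphodiesterase gene that holds miR-139, changed by 0.00 ± 0.18, and Htr2c by -0.15 ± 0.13.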

How the data were processed

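The miR table holds deposited log2 values of Affymetrix miR arrays, for which the authors corrected background, quantile normalized the probes and took a median polish of each probe set (RMA, per the labels). The genome build is not given in the sources used here. For mRNAs the deposited unit is the intensity of each spot on 1-colour Agilent arrays, and the normalized table of the authors (log2) served as an alternative.

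Tools were limma 3.58.1 in R 4.3.3, and scipy 1.17.1 in Python 3.11.15. The 3 miR groups were fitted in 1 limma model of group means, with (MS2 + MS5)/2 minus Con and MS5 minus MS2 as contrasts and Benjamini-Hochberg adjustment over all 1412 probe sets. For mRNAs, normexp (offset 50), quantile normalization, removal of control spots and averaging of repeated spots left 55681 probes of 62976 spots. Replicates are separate pups. Their number limited the precision, and exact tests could not go below p = 0.0238. In simulated miR data with 200 probe sets changed by 0.7 (log2), 90.5% were called, and with a change of 1, 98.5%. These shares hold for the spread that was simulated, not for every probe set. In the measured data, miR-34c at -0.91 ± 0.49 and miR-448 at -0.72 ± 0.51 were not called.

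Named miRs were called probe sets (in the order of adjusted p, then of separation from controls), the 10 that the study measured by PCR, the called or else the 2 most changed members of each list, opposite arms, hairpins and host genes. Genes named outside this rule were the miR-30 family, the miRs that differed between doses, miR-34b-3p and members of lists past the unadjusted threshold. The members, lists and tests were chosen with earlier results of these data known. Alternatives were median centring, quantile normalization, array weights, a mean level of at least 5, mature probe sets only, an intensity trend, the treated arrays as 1 group, Storey's q value and leaving out each array. Leaving out 2 arrays together was chosen after seeing the data. Of the 10 miRs measured by PCR, the paper names miR-204, miR-448, miR-455 and miR-574 as those that PCR bore out. PCR values were not analysed here.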

Additional observations from a re-analysis of the deposited data

Results flagged for a closer look

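The difference MS5 minus MS2 of miR-139-3p, 0.8374 on the log2 scale (adjusted p = 0.33 in limma), was the 1 dose difference among called probe sets at an unadjusted p under 0.05. Single arrays far from the rest of their group were looked for in 109 groups of values, of which 11 had one, where chance gives about 1 in 20. On the miR arrays these were the hairpin of mir-1944 on MS5 replicate 14, at 8.53, and miR-17* on MS2 replicate 3, at 7.97, each among 6 treated arrays. On the mRNA arrays Xist stood at 11.34 on MS5 replicate 9 of pups labelled male, and at 6.08 on Con replicate 19. Neuron markers stood apart on MS2 replicate 4, with Neurod6 at 10.02 and Neurod2 at 10.59, as did Htr2c at 12.95. The others were Neurod6 on Con replicate 19, at 13.32, Wfs1 on MS5 replicate 13, at 13.13, and Nfyc on MS5 replicate 12, at 13.46. The last was the probe named 6430411K18Rik, a listed synonym of Rtl1, on MS2 replicate 5, at 10.29. The causes of these outlying values were not tested.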

How the results depend on the processing

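The paper states that treated pups were returned to untreated littermates, but the sample labels used here name no litter. No analysis paired by litter was therefore possible, and pups of 1 litter may be alike. In the count of probe sets with an adjusted p under 0.05, 5 as reported, quantile normalization gave 0 in limma (with 175 at an unadjusted p under 0.05), array weights 13, a mean level of at least 5 gave 3, an intensity trend 2 and the treated arrays as 1 group 2. Array weights also gave 15 dose differences in place of 6, and the level filter 45 separated probe sets in place of 78, having tested fewer. Leaving out 1 array at a time gave 9 to 32 pooled calls, 0 to 27 with an adjusted p under 0.05, 4 to 17 changed alike, 3 to 43 dose differences, 91 to 165 separated, 4 to 17 called list members (8 as reported) and 0 to 1 called host genes. The highest dose difference count, 43, and adjusted count, 27, came without MS2 replicate 4, and the highest pooled count without Con replicate 17. Without MS2 replicate 4 and MS5 replicate 14 there were 26 pooled calls, 37 with an adjusted p under 0.05, 34 dose differences and 140 separated, and without MS5 replicates 9 and 12, which leaves MS5 with 1 array assumed to vary like the others, 24, 0, 24 and 140, with 10 changed alike and 16 called list members. The cause of these changes was not tested. Of 131 values of named miRs under planned settings, 123 stayed on their side of the threshold in the same direction, 7 lost the call and 1 gained it. Of 171 with 1 array left out, 138 stayed, 29 lost the call and 4 gained it, and 0 changed sign. The 2-group fit gives no dose difference, a q value was not run for dose differences, which are called on the unadjusted p, and miR-384-5p falls under the level filter. The shift of the median of all probe sets was at most 0.005 in size under any scaling. Signals near the array floor limit what can be seen for most hairpins and many opposite arms.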
